A study of Homo sapiens with 3 samples.

Results

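Histone acetyltransferases transfer acetyl groups from acetyl-CoA to lysines of histones and other proteins, and acetyl-lysine readers bind the modified residue through bromodomain or YEATS folds. Histone deacetylases such as HDAC2 remove the same mark. The genes described here thus encode writers, which work opposite the depleted enzyme, and readers, which bind the mark. Most of these enzymes act inside large complexes (SAGA and ATAC around KAT2A and KAT2B, the TIP60 complex around KAT5, the MOZ, MORF and HBO1 complexes around KAT6A, KAT6B and KAT7), whose other subunits set where and how well they act. The set comprised 34 genes, chosen by gene symbol and not by any measured value: writers, subunits of their complexes, and readers. All 34 were found in the table of 57736 gene rows, all 34 passed the filter on low counts, and they stood among 14524 genes tested. The list was drawn up with earlier results of the same libraries known.

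RNA was measured by sequencing in TOV21G, a cell line of human ovarian clear cell carcinoma that carries a mutated ARID1A. The WT group was 1 library of TOV21G cells, and the HDAC2 knockdown group was 2 libraries of the same line transduced with a lentivirus that expresses a short hairpin RNA against HDAC2, 1 hairpin per library (shRNA 1 and shRNA 2). All 3 libraries therefore share the ARID1A mutation, and the labels name no control virus for WT, so depletion of HDAC2 and transduction cannot be told apart. With 1 WT library, the p-values rest on the spread between the hairpin libraries, mostly as learned over all genes (18.9 prior degrees of freedom against 1 residual). A gene's SE and interval therefore reflect little of how far its own 2 hairpin libraries differ. The WT library is taken to vary as the hairpin libraries do, and nothing in the labels says that these are separate cultures beyond the hairpin used.

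The hairpins are shown because they define the perturbation that every value below is read against. Each stem has 21 bases and is written 5′ to 3′ as the sense strand, with capitals on the 7 bases that pair with the seed (bases 2 to 8) of the antisense strand.
First hairpin in the labels: cagtctcaccaatTTCAGAAa
Second hairpin in the labels: gcaaatactatgcTGTCAATt

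The whole first stem occurred in 4 of 17 HDAC2 transcripts of GENCODE release 29 and the whole second stem in 5 of 17, and neither occurred in the longest transcript of any of the 34 genes. The 7-base site of the first seed (TTCAGAA) was present in the longest transcript of 19 of 34 members, against 40.3% of all genes tested with a transcript sequence, and that of the second (TGTCAAT) in 7 of 34, against 17.3%. These shares were not matched for transcript length, and a longer transcript has more places for a 7-base site. NCOA2 held 5 copies of the first site and EP300 held 0. Which stem is shRNA 1 is not given in the labels, so these matches describe the transcripts only, and their part in any value was not tested.

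HDAC2 itself checked the labels. Its level was 105 CPM (counts scaled to a common library total, with the library sizes adjusted by TMM) in WT, 33.4 CPM with shRNA 1 and 51.6 CPM with shRNA 2, an estimated difference of −1.31 ± 0.20 on the log2 scale (SE, adjusted p = 4.82e-04, edgeR's quasi-likelihood test, adjusted over all genes by Benjamini and Hochberg). The libraries held 10138479 to 11398791 counts. The counts of the 2 knockdown libraries differed by more than sampling noise (chi-square per degree of freedom 9.04 over 15259 genes) and they were kept as 2 samples. Of the markers of clear cell and epithelial cells, PAX8, KRT8 and KRT18 were at 54.4 CPM or more of library total in every library, whereas NAPSA, KRT19 and CDH1 stayed at or below 1.07 CPM. Markers of leukocytes summed to 0.980 to 3.65 CPM and those of endothelium to 0.197 to 0.877 CPM. The fibroblast markers summed to 15.8, 24.6 and 39.1 CPM in WT, shRNA 1 and shRNA 2, mostly COL1A1 and COL1A2, while LUM and COL3A1 had 0 counts, and their part in the results was not tested.

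None of the 34 writers and readers passed the test between knockdown and WT. Of all genes tested, 7.72% passed, 3.96% higher and 3.76% lower in knockdown cells. At an unadjusted p below 0.05, 2 of the 34 passed, KAT2A and ATAD2, both with a lower estimate, against 23.5% of all genes. The count of members past the adjusted threshold was also 0 with edgeR's likelihood ratio test, every other alternative that gave a test, and DESeq2's Wald test, which gave an adjusted p for 30 of the 34 (none for TADA2A, SUPT3H, ING3 and ING4). Estimates ran from −0.49 to 0.32 on the log2 scale with a median of −0.04, beside a median of 0.01 over all genes. The members' median was −0.07 with shRNA 1 alone against WT and 0.01 with shRNA 2 alone, so its sign rests on shRNA 1. The median size of a change, regardless of sign, was 0.18 for the members and 0.30 for all genes. It was 0.22 over 103 other genes of lysine acetylation, 0.17 over the 49 listed as writers or subunits and 0.26 over the 29 listed as readers. The 95% interval lay inside a 2-fold change in both directions for each of the 34 and inside a 1.5-fold change for 18 of them, while 64.5% of all genes had an interval inside 2-fold. An estimate's noise and its interval both shrink with depth. The members were more abundant than the typical gene, at a median of 42.7 CPM in WT against 21.9 CPM.

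**Figure D1:**
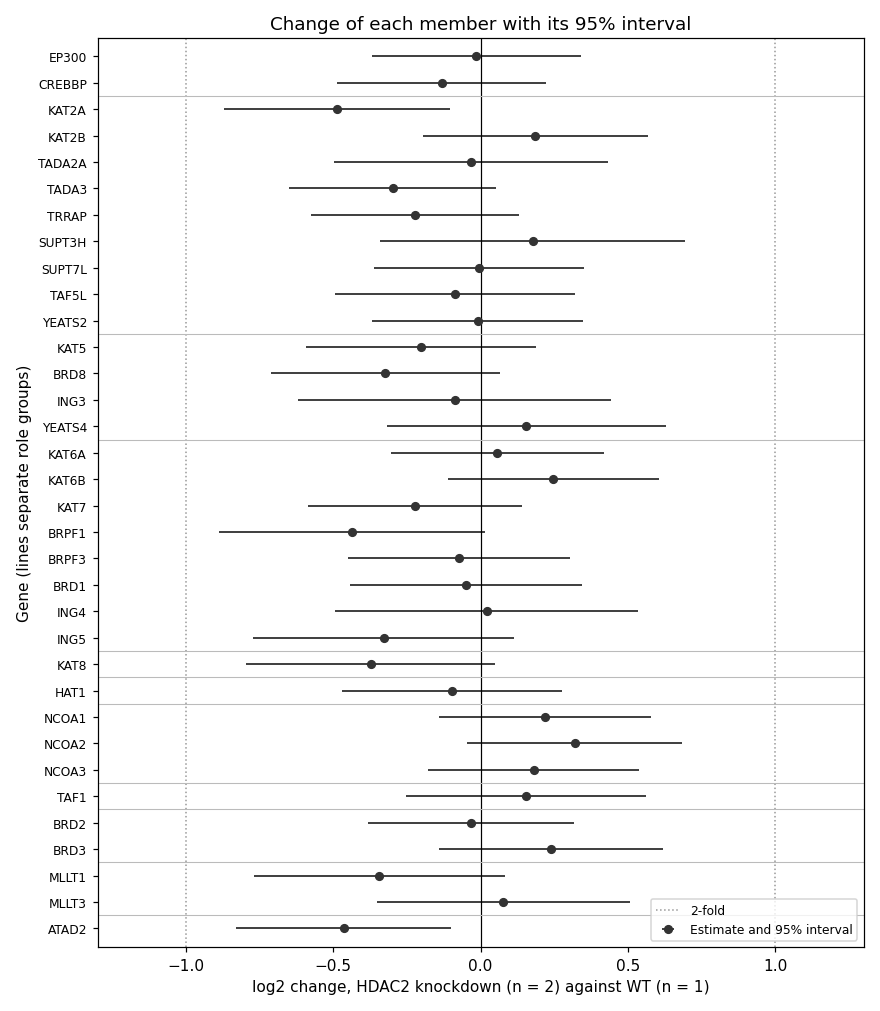
Estimated log2 change of each member (points) between HDAC2 knockdown (n = 2 libraries) and WT (n = 1), with the 95% interval of edgeR's quasi-likelihood fit as bars, dotted lines at a 2-fold change and horizontal lines between role groups. All 34 intervals lie inside the dotted lines, and only those of KAT2A and ATAD2 do not reach 0.

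At this design a miss says little about small changes. Counts of 14524 genes were simulated at the same depth and at the trend of spread with level. The test found 15.6% of 45 changes of 1.5-fold, 61.0% of 41 changes of 2-fold and 88.5% of 52 changes of 4-fold. The changed genes were drawn from all levels and were a smaller share than passed in the data, so these rates are not the members' own. On the TMM-scaled levels, both hairpin libraries lay above WT for 9 members and below it for 14, and for 11 the WT value lay between them. Over all genes tested the shares were 39.9% above and 39.3% below. With levels scaled by library size alone, 12 members were above and 13 below, against 42.9% and 36.2% of all genes. Since both hairpins are set against the same WT library, these counts carry that library's own deviation.

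Per kilobase of the longest transcript, BRD2 was the most abundant member in WT, at 51.7 CPM per kb, and it was also first with shRNA 1 (49.2) and shRNA 2 (52.0). It is a BET protein, a double bromodomain reader of acetylated histones. TADA3, a subunit that SAGA and ATAC share, followed at 41.4, 34.6 and 32.7 CPM per kb in WT, shRNA 1 and shRNA 2. HAT1, which acetylates newly made histones before they are assembled into chromatin, had 30.03, 25.3 and 30.9. ATAD2, an ATPase with a bromodomain, had 28.5, 18.7 and 22.6. The lowest members in WT were ING3 at 3.24, MLLT3 at 3.39 and TADA2A at 3.44 CPM per kb, values whose order lies within the spread between the hairpin libraries. The counts behind these levels ran from 98 (SUPT3H) to 2522 (BRD2) in WT, a counting error of 10.1% to 1.99%. Transcript ends and isoforms in use were not known, so a level per kb is approximate.

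**Figure D2:**
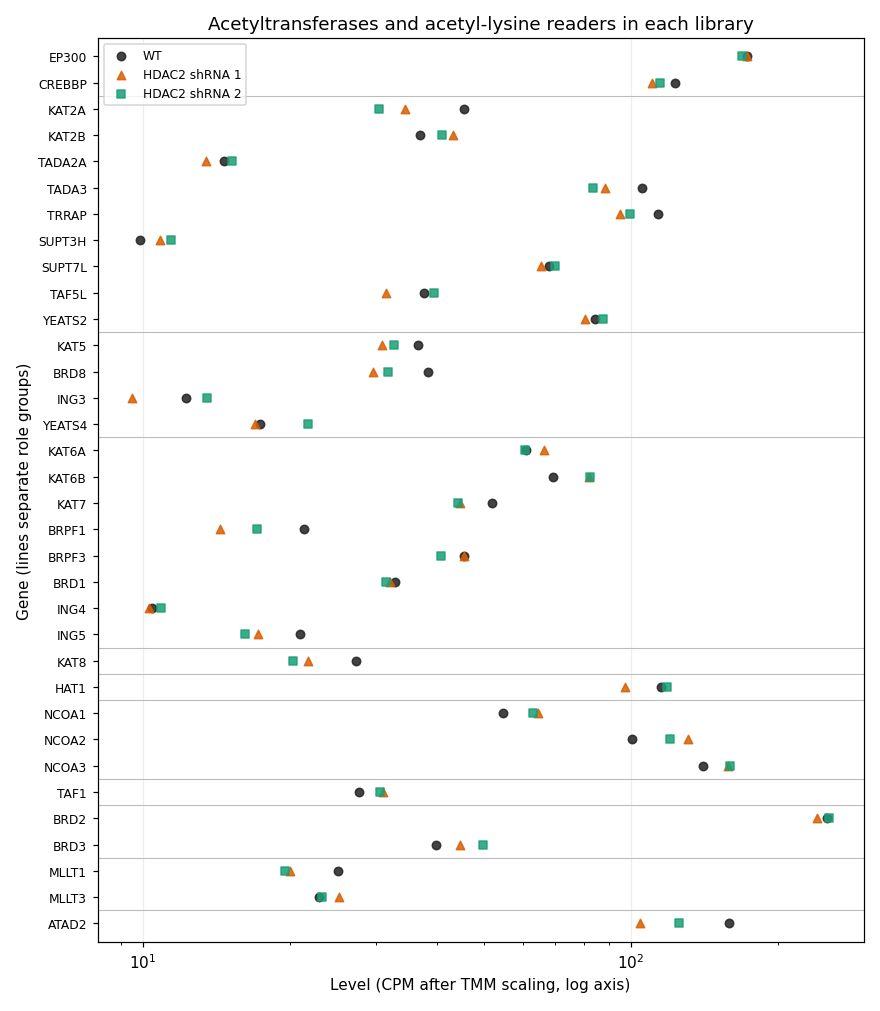
Level of each member in the 3 libraries (CPM after TMM scaling, log axis), 1 row per gene and 1 symbol per library, with lines between role groups. The libraries lie close together for most genes, BRD2 is at 241 to 254 CPM in all 3, and ATAD2 and KAT2A have the widest gap between WT and the knockdown mean.

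EP300 and CREBBP encode p300 and CBP, paired coactivators that acetylate histones at enhancers and promoters. EP300 stood at 172.8 CPM in WT, 172.7 with shRNA 1 and 169.2 with shRNA 2, and its 95% interval ran from −0.37 to 0.34 on the log2 scale. The 3 levels lay close together, the estimate turned positive with scaling by library size alone (0.018), and the estimate of −0.02 was among the smallest in size of the 34. CREBBP stood at 123, 110 and 115 CPM, an estimate of −0.13 ± 0.17 (SE). Both hairpin libraries were below WT for CREBBP, by less than the test could call.

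KAT2A (ENSG00000108773, chromosome 17 from 42113108 to 42121358, minus strand, GRCh38) encodes GCN5, the catalytic subunit of SAGA and ATAC. Its level was 45.5 CPM in WT, 34.4 with shRNA 1 and 30.4 with shRNA 2, so both knockdown libraries were below WT, at a mean of 71.3% ± 6.15 of WT (SD, n = 2). The log2 estimate was −0.49 ± 0.18 (SE), the lowest of the 34, and did not pass (adjusted p = 0.110 by edgeR's quasi-likelihood test). With the trend in transcript GC content removed it was −0.26. Of its read-length sequences, 8.30% also occur in a second annotated gene, AC099811.2.

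KAT2B (chromosome 3 from 20040023 to 20154404, plus strand) encodes PCAF, the paralogue that can take the place of GCN5 in these complexes. It had 37.0, 43.2 and 41.0 CPM in WT, shRNA 1 and shRNA 2, both knockdown libraries above WT, and an estimate of 0.19 ± 0.18 (SE; adjusted p of 0.586, same test). The ratio of KAT2B to KAT2A per kb was 0.524 in WT, 0.808 with shRNA 1 and 0.868 with shRNA 2. That is 1.54 and 1.66 times the WT ratio, the widest shift among the 7 pairs of related genes compared, which were described and not tested. With the GC trend removed the estimates were 0.05 for KAT2B and −0.26 for KAT2A, and the fitted shift of the ratio was 1.24-fold, against 1.60-fold with the trend left in.

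The promoters of this pair are printed because their estimates had opposite signs within a single enzyme family, a choice made after the values were seen. Each window holds 250 bases before and 50 after the RefSeq start (GRCh38.p14), 5′ to 3′ on the gene's strand, and capitals mark GGGCGG or its complement, the core of an SP1 site.
KAT2A promoter, chr17:42121318-42121617, minus strand: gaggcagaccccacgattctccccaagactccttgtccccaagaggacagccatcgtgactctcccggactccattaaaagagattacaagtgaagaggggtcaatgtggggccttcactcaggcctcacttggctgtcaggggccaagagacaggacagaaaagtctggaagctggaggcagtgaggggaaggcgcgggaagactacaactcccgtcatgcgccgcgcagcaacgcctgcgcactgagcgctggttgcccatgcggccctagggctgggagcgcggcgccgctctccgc
KAT2B promoter, chr3:20040196-20040495, plus strand: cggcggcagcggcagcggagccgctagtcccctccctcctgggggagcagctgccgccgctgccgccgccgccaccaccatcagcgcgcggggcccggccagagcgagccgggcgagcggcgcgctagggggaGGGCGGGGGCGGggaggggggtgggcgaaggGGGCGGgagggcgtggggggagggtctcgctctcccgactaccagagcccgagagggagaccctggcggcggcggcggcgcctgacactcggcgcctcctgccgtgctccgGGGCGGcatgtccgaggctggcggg

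The KAT2A window had a GC content of 62.0%, 18 CpG dinucleotides and 0 GGGCGG matches on either strand, and the KAT2B window 80.3%, 40 and 4. In another pair, the windows of NCOA1 held 10, 3 and 0 matches and that of NCOA3 held 0, with estimates of 0.22 and 0.18. A link between these matches and the estimates was not tested. The KAT2B window, from 20040196, lies wholly inside the gene as placed by GENCODE, which starts at 20040023. Most of the KAT2A window lies before the GENCODE start of that gene, at 42121358. Promoter windows were held for 28 of the 34 members, 44 windows in all, with a median GC content of 68.5% against 58.7% over all 35116 windows. The median count of CpG was 31 against 14. All windows were neither limited to genes tested here nor matched for GC content, so the motif shares below compare windows of unlike composition. GGGCGG was present in 65.9% of the members' windows and in 45.0% of all windows. CCAAT, the core of an NF-Y site, was in 20.5% against 34.6%, and TATAAA in 2.27% against 11.5%. The E2F motif TTTCGCGC or TTTGGCGC was in 2 of the 44 (4.55% against 1.15%), CACGTG, an E-box, in 6.82% against 7.26%, and TGACGTCA, a cyclic AMP response element, in 0 against 1.85%. Both strands were searched, several windows belong to the same gene, some overlap, and a match is a match of letters only.

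The other subunits of SAGA and ATAC had estimates on both sides of 0, none past the test. TADA3, an adaptor of the enzyme module, had 106 CPM in WT, 88.4 with shRNA 1 and 83.5 with shRNA 2, both below WT, with an estimate of −0.30 ± 0.17 (SE). TRRAP, the large scaffold that SAGA shares with the TIP60 complex and that contacts activators, had 114, 95.01 and 99.6 CPM, again both below, and an estimate of −0.22 ± 0.17 (SE). SUPT3H, a SAGA core subunit, was the only subunit of this group other than KAT2B with both knockdown libraries above WT, at 9.83, 10.8 and 11.4 CPM, with an estimate of 0.18 that was −0.03 with the GC trend removed. For TADA2A, SUPT7L, TAF5L and YEATS2 the WT value lay between the hairpin libraries, and their estimates ran from −0.09 to −0.01. YEATS2 is the YEATS reader of ATAC, TAF5L and SUPT7L belong to the SAGA core and TADA2A is the ATAC adaptor. The median of the 9 genes of SAGA and ATAC was −0.03. Of the read-length sequences, 15.3% for TADA3 and 16.6% for SUPT7L lie opposite other genes, so their counts are uncertain if the counting did not use strand.

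In the TIP60 complex, which acetylates histones at promoters and DNA breaks, the estimates were −0.20 for the enzyme gene KAT5, −0.32 for BRD8, −0.09 for ING3 and 0.16 for YEATS4. BRD8, its bromodomain subunit, had 38.4 CPM in WT, 29.6 with shRNA 1 and 31.8 with shRNA 2. KAT5 had 36.6, 30.9 and 32.7. Both hairpin libraries were below WT for KAT5 and BRD8, whereas ING3, a PHD finger subunit, and YEATS4, a YEATS reader, had WT values between the hairpins. ING3 was at 12.2 CPM in WT and 9.51 and 13.5 with shRNA 1 and shRNA 2, and YEATS4 at 17.4, 16.9 and 21.8. For both genes the hairpins differed from each other by more than the knockdown mean differed from WT. Of the KAT5 sequences of read length, 25.9% lie opposite RNASEH2C, so its counts are uncertain if the counting did not use strand.

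The MYST family enzymes KAT6A, KAT6B and KAT7 share the BRPF and ING subunits. KAT6B (MORF) had 69.3 CPM in WT, 81.9 with shRNA 1 and 82.6 with shRNA 2, an estimate of 0.25 ± 0.17 (SE), with both libraries at about the same distance above WT. KAT6A (MOZ) had 61.1, 66.5 and 60.7, with an estimate of 0.06. KAT7 (HBO1), which acetylates histones at replication origins among other places, had 51.9, 44.6 and 44.3 and an estimate of −0.22 ± 0.17 (SE). For KAT6A the WT value lay between the hairpin libraries, and KAT7 lay below WT in both.

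Among the scaffold subunits, BRPF1 was lowest relative to WT, at 21.4, 14.4 and 17.2 CPM and −0.44 ± 0.22 (SE; adjusted p = 0.227 by edgeR's quasi-likelihood test). Its relative BRPF3 had 45.5 CPM in WT, 45.5 with shRNA 1 and 40.8 with shRNA 2, an estimate of −0.07, and BRD1 (BRPF2) had 32.9, 32.1 and 31.5 CPM and an estimate of −0.05. The PHD finger subunit ING5 had 20.97, 17.2 and 16.2 CPM and an estimate of −0.33 ± 0.21 (SE), and its relative ING4 had 10.4, 10.3 and 10.9 CPM and an estimate of 0.02. Outside these complexes, KAT8 (MOF), the enzyme of the MSL and NSL complexes, had 27.3, 21.8 and 20.3 CPM, below WT in both libraries, with −0.37 ± 0.20 (SE; adjusted p of 0.279, same test). HAT1 had 116 CPM in WT, 97.2 with shRNA 1 and 119 with shRNA 2, on both sides of WT.

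The p160 coactivators NCOA1, NCOA2 and NCOA3 bind nuclear receptors and bring in p300 and CBP. NCOA2 had 101 CPM in WT, 131 with shRNA 1 and 120 with shRNA 2, the highest estimate of the 34 at 0.32 ± 0.17 (SE; adjusted p = 0.280 by edgeR's quasi-likelihood test). NCOA1 had 54.8, 64.6 and 63.0, and NCOA3 had 140, 158 and 160, with estimates of 0.22 ± 0.17 and 0.18 ± 0.17 (SE). All 3 genes were above WT in both libraries, as were 39.9% of all genes tested. Together the 3 summed to 296 CPM in WT, 353 with shRNA 1 and 343 with shRNA 2. Their transcripts had a GC content below 46%, a range in which 4418 of 6020 genes tested had a positive estimate. With the GC trend removed the estimates were 0.15, 0.07 and −0.01 for NCOA2, NCOA1 and NCOA3. TAF1, the largest subunit of TFIID, with a double bromodomain, had 27.7, 31.1 and 30.6 CPM and an estimate of 0.15 ± 0.19 (SE).

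The readers without a writer partner went in both directions. BRD2 had 253, 241 and 254 CPM in WT, shRNA 1 and shRNA 2, and its 95% interval ran from −0.38 to 0.32. BRD3, a second BET reader, had 39.9, 44.6 and 49.7 CPM, above WT in both libraries, with an estimate of 0.24 ± 0.18 (SE) that was 0.32 with the GC trend removed. Of the BRD3 sequences of read length, 17.5% lie opposite the antisense gene BRD3OS. The ratio of BRD2 to BRD3 per kb was 7.32 in WT, 6.23 with shRNA 1 and 5.91 with shRNA 2.

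MLLT1 (ENL) and MLLT3 (AF9) are YEATS readers that bring elongation factors to acetylated chromatin. MLLT1 had 25.1, 19.98 and 19.5 CPM, below WT in both libraries, with an estimate of −0.34 ± 0.20 (SE). A second row of the table under the same symbol (ENSG00000267427) had 23.5, 16.8 and 19.1 CPM and an estimate of −0.39 ± 0.21 (SE). Its sequence was not searched for overlap with other genes. The sum of both rows gave −0.36 (adjusted p = 0.224 by edgeR's quasi-likelihood test). The division of reads between the rows is uncertain, and the rows gave the same direction. MLLT3 had 23.0, 25.2 and 23.3 CPM, and the ratio of MLLT3 to MLLT1 per kb went from 0.610 in WT to 0.840 and 0.792 with shRNA 1 and shRNA 2, on the first MLLT1 row alone. This direction turned with the GC trend removed, where the estimates were −0.26 for MLLT3 and −0.07 for MLLT1 and the fitted ratio in knockdown was 0.876 of WT.

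**Figure D3:**
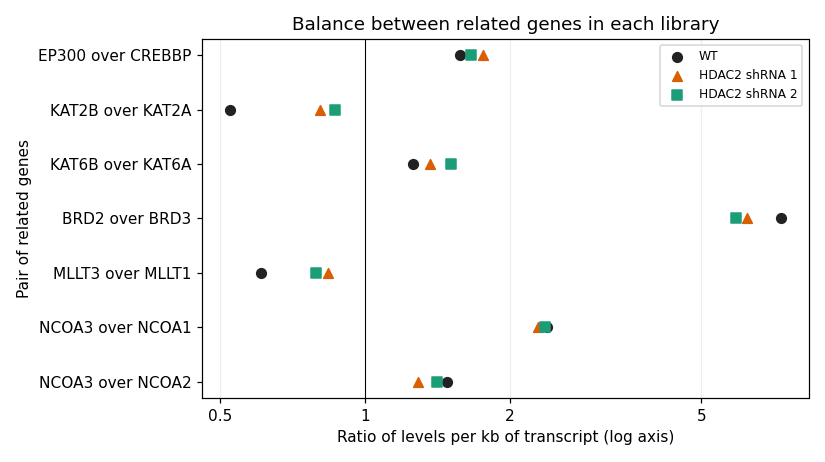
Ratio of levels per kb of transcript between related genes (log axis) in WT, shRNA 1 and shRNA 2, 1 symbol per library, with a line at a ratio of 1. KAT2B over KAT2A goes from 0.524 in WT to 0.808 and 0.868, and EP300 over CREBBP stays between 1.58 and 1.76.

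ATAD2 is a chromatin ATPase whose bromodomain binds newly made acetylated histones, and its RNA is known to be high in dividing cells. It had 159 CPM in WT, 104 with shRNA 1 and 126 with shRNA 2, both knockdown libraries below WT and apart from each other, at a mean of 72.5% ± 9.54 of WT (SD, n = 2). The estimate was −0.46 ± 0.18 (SE; adjusted p = 0.110 by edgeR's quasi-likelihood test), with a 95% interval from −0.83 to −0.10. With the GC trend removed it was −0.78 (adjusted p = 0.0603 by the same test), the lowest of the 34 in that fit. That fit called 0.868% of all genes and 0 of the 34.

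The members' estimates moved with the GC content of their transcripts, as did those of all genes. Across the 34 genes, Pearson's r between GC content and log2 change was −0.51 and Spearman's rho −0.48, and over the 14306 genes with a known GC content they were −0.31 and −0.48; genes are not replicates and share the same libraries. Among the members r was −0.32 and rho −0.30 with shRNA 1 alone, and −0.62 and −0.62 with shRNA 2 alone. With the trend over all genes removed, the members' r was 0.33 and rho 0.26. Of 16 members with a GC content below 46%, 10 had a positive estimate (median 0.12), against 0 of 10 members at 54% or more (median −0.25). All genes in these ranges had medians of 0.23 and −0.25. With the trend removed, 5 of the 16 and 5 of the 10 were positive, and the medians were −0.08 and −0.03. The estimates of KAT2A (GC 59.9%), BRPF1 (58.0%) and MLLT1 (63.4%) then lay at −0.26, −0.23 and −0.07, closer to 0, while those of ATAD2 (39.1%), HAT1 (40.9%) and ING3 (36.9%) lay further below it, at −0.78, −0.35 and −0.48.

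**Figure D4:**
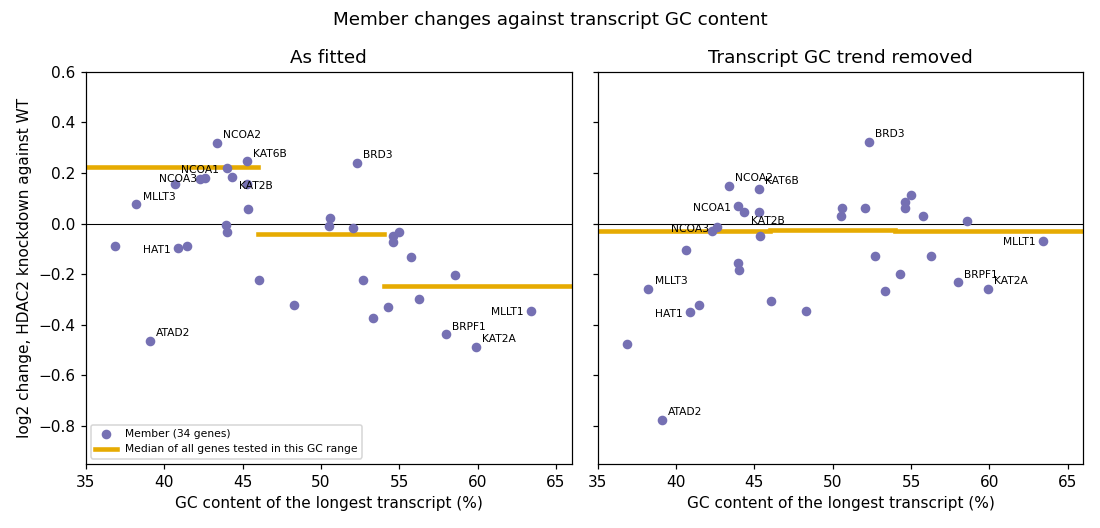
Log2 change of each member (points) between HDAC2 knockdown and WT against the GC content of its longest transcript, as fitted (left) and with the transcript GC trend removed (right), with bars at the median of all genes tested in 3 GC ranges. On the left no member with a GC content of 54% or more is above 0, and on the right 5 of those 10 are.

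Other genes of lysine acetylation, 103 tested of 107 listed, included 9 that passed, 3 higher and 6 lower. The targeted gene HDAC2 is among the 6, and the share that passed over all genes tested was 7.72%. Of 49 further writers and complex subunits, MSL3, a chromodomain subunit of the MSL complex, rose 1.56-fold, from 33.9 CPM to 51.1 and 54.7 with shRNA 1 and shRNA 2. In the same list HCFC1, a host cell factor found in the NSL complex, fell to 0.620 of WT, RUVBL2, an ATPase of the TIP60 and INO80 complexes, to 0.635, and JADE2, a scaffold of HBO1, to 0.596. The other 45 did not pass, and the median of the 49 was 0.01.

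Of 29 further genes listed as readers, SP110, an interferon-inducible nuclear body protein, rose 2.18-fold, from 5.42 CPM in WT to 8.99 and 14.7. Of its read-length sequences, 15.9% lie opposite other genes. BRWD1, a double bromodomain protein, rose 1.56-fold, from 36.6 CPM to 57.7 and 56.3. TRIM28, a corepressor with a bromodomain, fell to 0.662 of WT, from 190 CPM to 135 and 117. The median of the 29 was 0.12. Of 9 genes of acetyl-CoA supply, SLC25A1, the mitochondrial citrate carrier, fell to 0.663 of WT (adjusted p = 0.0485 by edgeR's quasi-likelihood test), and of 16 deacetylases HDAC2 alone passed. SLC25A1 did not pass under 8 of 10 alternatives, among them DESeq2's size factors (adjusted p = 0.0560) and upper quartile scaling (0.0542) in the edgeR fit. Without a filter on low counts none of these 9 genes passed, and with DESeq2's Wald test HDAC2 and HCFC1 did, with no adjusted p for SP110. The log2 change of SP110 was 0.73 with shRNA 1 alone and 1.44 with shRNA 2 alone. With the GC trend removed, HDAC2 was the 1 of the 103 genes that passed (adjusted p = 0.0308 by edgeR's quasi-likelihood test). SP110, BRWD1, TRIM28, MSL3, HCFC1, RUVBL2, JADE2 and SLC25A1 then had log2 changes of 0.97, 0.28, −0.32, 0.51, −0.44, −0.42, −0.58 and −0.30.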

How the data were processed

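Total RNA of 3 TOV21G libraries was sequenced, 1 WT and 2 HDAC2 knockdown. The authors deposited 1 table of estimated counts, whole numbers for each Ensembl gene. RSEM 1.2.3, edgeR and hg19 are named, per the submitters' processing notes, without a role. The strand setting of the counting was not found in these sources. Members and gene lists were chosen with earlier results of these data known. Every member is named, with HDAC2 and, per other list, up to 3 rising and 3 falling genes past the test by smallest adjusted p. Genes were matched by Ensembl ID or symbol. Names, transcript length and GC content came from GENCODE 29, and promoter sequences from RefSeq, both on GRCh38. The main test over all genes was edgeR's quasi-likelihood test (edgeR 4.0.16, R 4.3.3), with TMM scaling, filterByExpr and Benjamini-Hochberg adjustment, at an adjusted p below 0.05. It had 1 residual and 18.9 prior degrees of freedom, and 6.56 prior with the GC trend removed. Standard errors and 95% intervals came from its F statistic. It was tested on simulated data. Alternatives were other scalings, filters and tests (DESeq2 1.42.0), spline trends on transcript GC content or length (df = 5), each hairpin library left out and, chosen after seeing the data, rows with a repeated symbol summed. A count of 0 allows 3 counts, 0.263 to 0.296 CPM, for counting error only.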

Additional observations from a re-analysis of the deposited data

How the results depend on the processing

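No paired analysis was possible because there was a single WT library for both hairpin libraries. The count of members past the test stayed at 0 higher and 0 lower under all 10 alternatives that gave a test, of which DESeq2's Wald test gave no adjusted p for 4 members. Their smallest adjusted p there ran from 0.0603 (GC trend removed) to 0.468 (no filter on low counts). Of the 34 estimates, 16 kept their sign under all 12 alternatives, 6 higher and 10 lower, and those that did not were at most 0.20 in size. Over all genes, 575 were higher and 546 lower. Without a filter 0 and 0 were (2486 at an unadjusted p below 0.05), with DESeq2's Wald test 151 and 155, with the GC trend removed 45 and 81, with a length trend removed 196 and 315, and with library size alone 868 were higher. Of the other acetylation genes, 3 were higher and 6 lower. With library size alone 5 were higher, without a filter 0 and 0, with DESeq2's Wald test 0 and 2, with the GC trend removed 0 and 1, and with the length trend removed 0 and 3. HDAC2's log2 change of −1.31 did not pass without a filter (adjusted p = 0.468, edgeR's quasi-likelihood test). The members' median was −0.14 with the length trend removed.

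Signs changed as follows, none past the test. With library size alone the log2 changes were 0.018 for EP300, 0.0013 for TADA2A, 0.029 for SUPT7L, 0.024 for YEATS2 and 0.0026 for BRD2. With the GC trend removed they were 0.061 for EP300, 0.029 for CREBBP, −0.029 for SUPT3H, 0.029 for YEATS2, 0.010 for KAT5, −0.11 for YEATS4, −0.048 for KAT6A, 0.061 for BRPF3, 0.087 for BRD1, −0.014 for NCOA3, 0.11 for BRD2 and −0.26 for MLLT3. With the length trend removed they were −0.12 for KAT6A and −0.056 for MLLT3. With shRNA 1 alone and shRNA 2 alone against WT, with no test, they were −0.12 and 0.054 for TADA2A, −0.054 and 0.042 for SUPT7L, −0.26 and 0.068 for TAF5L, −0.072 and 0.050 for YEATS2, −0.36 and 0.14 for ING3, 0.12 and −0.010 for KAT6A. In the same order they were −0.25 and 0.041 for HAT1, −0.072 and 0.0085 for BRD2, −0.036 and 0.33 for YEATS4, 0.0030 and −0.16 for BRPF3, and −0.019 and 0.060 for ING4. The cause was not tested. Leaving out a hairpin leaves 1 library against 1, so no counts past a threshold exist there.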
